A study of Mus musculus with 48 samples.

Results

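The comparison covers the epithelial libraries of 6 mice given saline and 6 mice given bleomycin with a control treatment, 12 of the 48 libraries of the series. They were chosen by the labels of exposure, treatment type, compartment and batch. RNA was recovered with an anti-HA antibody from lung of RiboTag mice, in which a chosen cell type carries an HA-tagged ribosomal protein, and was counted with 3′-end libraries. The label of treatment was Vehicle for every mouse of batch S135 (3 saline, 2 bleomycin) and Axum8 for every mouse of batch S151 (3 saline, 4 bleomycin), so both exposures of a batch carried the same label. Of the saline mice 2 were female and 4 male, and of the bleomycin mice 1 was female and 5 were male. No source used here gives the Cre driver, strain, age, bleomycin dose or day of collection. Batch S061 was left out because it held no saline mice.

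Bleomycin breaks DNA strands and, given to the airways of mice, injures the alveolar epithelium and leads to fibrosis. The alveolar surface is lined by flat type 1 cells for gas exchange and by type 2 cells, which secrete surfactant and divide to replace lost cells. Tagged-ribosome RNA is read from the whole tissue without sorting cells, so fewer cells of a type and less RNA per cell cannot be told apart here.

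The deposited table names genes by Ensembl ID, and the reference table used here matched 0 of 42548 IDs to a symbol. Cell type markers and pathway genes could therefore not be looked up by name, and the epithelial label could not be checked against named markers. The account rests on groups of genes, on a published set of cell-cycle markers given as Ensembl IDs, and on 4 genes given by ID. No sequence is shown for the same reason.

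Whole lung values rest on reading the letter I of the column names as whole lung, since it marks the other library of each mouse. The labels give both compartments the same source and RNA description.

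Total counts ran from 13014500 to 18158800 per library in S135 and from 24751200 to 32465800 in S151. On the first principal component of the 2000 most variable genes, which held 62.4% of the variance, batch accounted for 99.1% of the spread. The second component held 11.1%, and exposure accounted for 86.7% of the spread along it. All 6 saline libraries lay above 0 on that component, between 17.1 and 38.4, and all 6 bleomycin libraries below 0, between -52.5 and -13.8. Bleomycin mouse 148 of S135 lay farthest out.

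**Figure D1:**
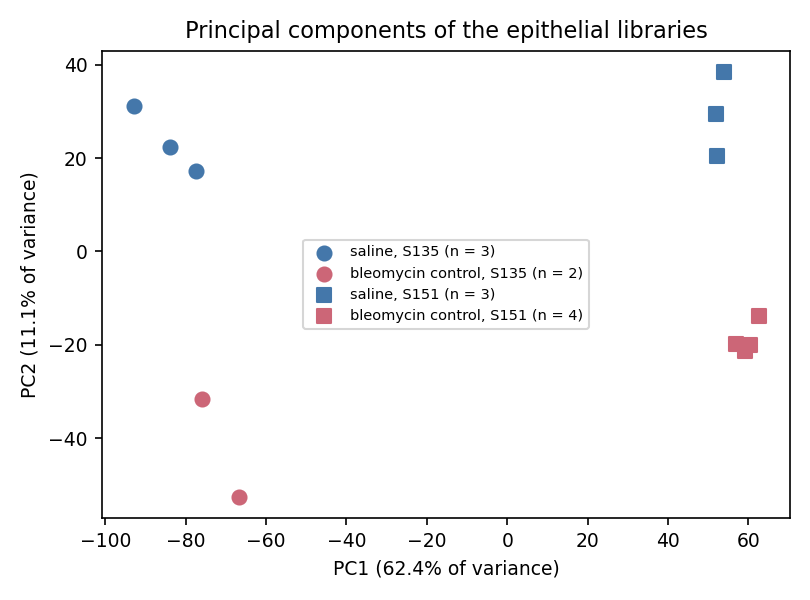
Principal component 1 (x axis) and 2 (y axis) of log2 CPM (library-scaled counts) for the 12 epithelial libraries. Circles are S135 and squares S151, blue is saline and red bleomycin control. Batches part along the x axis and exposures along the y axis, where saline libraries lie at 17.1 or higher and bleomycin libraries at -13.8 or lower.

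The question of the main comparison is how bleomycin injury changed the RNA bound to epithelial ribosomes. After bleomycin 439 of 14169 genes tested were higher (3.10%) and 351 were lower (2.48%), 5.58% in all, at an adjusted p under 0.05 in edgeR's quasi-likelihood test with batch as a term. Called rises were larger than called falls, but the sets also differed in level, and at low levels only large changes pass the test. Among genes called higher the median log2 fold change was 1.56, with 327 over 2-fold and 166 over 4-fold. Among genes called lower the median was -0.78, with 81 over 2-fold and 5 over 4-fold. The median over all tested genes was -0.01. The mean difference of each of the 790 called genes pointed the same way in both batches. These genes were called on the same values of both batches, which favours such agreement.

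Rises and falls also differed in the level of the genes they took in. Genes called higher had a median level of 10.5 CPM over both groups and genes called lower of 45.1 CPM, against 14.3 CPM over all genes tested. In the lowest of 4 equal bins by level (under 4.05 CPM) 112 of 3543 genes were higher and 3 lower. In the highest bin (over 37.8 CPM) 98 of 3542 were higher and 196 lower, or 2.77% and 5.53%. The median size of called changes was 2.75 on the log2 scale in the lowest bin and 0.74 in the highest. At low levels only large changes pass the test, so these medians do not compare the genes' true sizes of change.

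**Figure D2:**
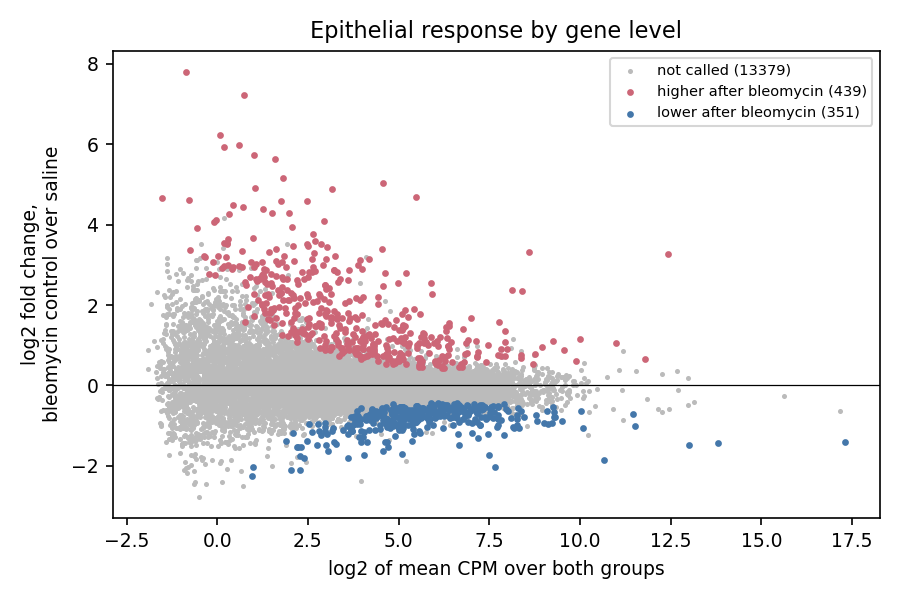
Log2 fold change of bleomycin control over saline (y axis) against the log2 of the mean CPM over both groups (x axis), a point per gene tested. Red points are the 439 genes called higher, blue points the 351 called lower, and grey points were not called. Most large rises lie at low to middle levels, and the blue points reach to the right edge.

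Of the 14169 genes, 208 had every bleomycin library above every saline library with no regard to batch (1.47%), and 53 had every bleomycin library below (0.374%). Among called genes the groups were separate in this way for 175 of 439 higher and 42 of 351 lower genes. Within each batch taken alone, 338 of the 439 and 225 of the 351 had groups that did not overlap, against 499 (3.52%) and 375 (2.65%) of all genes tested. The called genes were selected by the same values. The median SD among mice of a group, taken within batches on the log2 scale, was 0.52 for saline and 0.40 for bleomycin over genes called higher. It was 0.25 and 0.31 over genes called lower, and 0.38 and 0.39 over all genes tested.

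The number of called genes depended on a few mice and on scaling. Without bleomycin mouse 148, 246 genes were higher and 130 lower. The count of lower genes was also 176 without saline mouse 207, 225 without bleomycin mouse 208R, 223 without mouse 225 and 538 without mouse 206. With library totals in place of TMM scaling (trimmed mean of M values), the median over all genes moved from -0.01 to 0.34, and 1753 genes were called higher and 75 lower. All changes in this text are relative to the TMM scale unless a percentage of counts is given.

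The rule for single genes took, per direction, the 12 called genes of largest fold that reached a mean of 5 CPM in the higher group and changed the same way in both batches. The 12 with the largest rise had log2 fold changes from 3.77 to 5.64. Their saline means lay between 0.101 and 2.31 CPM and their bleomycin means between 5.22 and 87.3 CPM. In 8 of the 12 no saline library reached a bleomycin library, as in 1.47% of all genes tested. The 12 with the largest fall had log2 fold changes from -2.11 to -1.62. The groups were separate in 3 of these 12, as in 0.374% of all genes tested. Both sets of 12 were picked by fold in the same values, which favours separation. Saline means of the 12 with the largest fall ran from 6.19 to 2603 CPM.

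ENSMUSG00000021403 had the largest rise by the rule. Its saline libraries lay between 0 and 0.408 CPM with a median of 0.0209, and its bleomycin libraries between 1.32 and 11.9 CPM with a median of 6.35. The groups did not overlap, and all 3 saline libraries of S135 were at 0. The log2 fold change was 5.64 ± 0.78 (SE, edgeR adjusted p = 0.000361). In whole lung of the same mice it stood at 0.424 ± 0.737 CPM with saline and 2.90 ± 1.77 CPM with bleomycin (SD, n = 6 each), and the test of the difference between compartments did not pass (2.04 ± 1.10 on the log2 scale, SE, edgeR adjusted p = 0.692).

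ENSMUSG00000061100, chosen after its values were seen, was the most abundant gene among those called higher. It held between 0.0146% and 0.378% of counts in saline libraries, with a median of 0.0504%, and between 0.332% and 2.13% in bleomycin libraries, with a median of 1.12%. The groups overlapped through a single pair of S135: saline mouse 146 at 0.378% and bleomycin mouse 149 at 0.332%. In S151 saline libraries reached 0.0788% and bleomycin libraries began at 1.04%. The log2 fold change was 3.26 ± 0.83 (SE, edgeR adjusted p = 0.041). Within S135 alone it was 1.93 (edgeR adjusted p = 0.769), and with no filter on low counts or no batch term the adjusted p was 0.112 or 0.0834. It ran from 2.93 to 4.20 with a mouse left out, and the call was lost in 8 of those 12 fits (without saline mice 207, 221 and 230 or bleomycin mice 148, 204, 206, 208R and 225). DESeq2, run as an alternative, gave no adjusted p for this gene. Its rise in whole lung was 3.27 on the log2 scale (edgeR adjusted p = 0.0238).

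ENSMUSG00000024653 was the most abundant gene of the epithelial libraries and was called lower. It was likewise chosen after its values were seen. It held between 15.4% and 28.9% of all counts in saline libraries, with a median of 17.0%, and between 6.01% and 15.7% in bleomycin libraries, with a median of 9.30%. The mean share was 20.2% ± 5.89 with saline and 10.4% ± 3.48 with bleomycin (SD, n = 6 each). The lowest saline library, in S135, lay at 15.4%, just below bleomycin mouse 208R of S151 at 15.7%, and within each batch the groups were separate. The log2 fold change was -1.42 ± 0.26 (SE, edgeR adjusted p = 0.00339), and the mean log2 difference was -1.37 in S135 and -1.47 in S151. The call was kept in all 12 fits with a mouse left out, but not within S151 alone (-1.50, edgeR adjusted p = 0.107) or with no batch term (edgeR adjusted p = 0.0531). In whole lung its log2 fold change was -0.96 (edgeR adjusted p = 0.0286), and the test of the difference between compartments did not pass (-0.44 ± 0.20, SE, edgeR adjusted p = 0.602).

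ENSMUSG00000087259 had the largest fall by the rule. Its saline libraries lay between 4.57 and 8.66 CPM with a median of 6.24, and its bleomycin libraries between 0.224 and 4.40 CPM with a median of 1.86. The groups did not overlap. The log2 fold change was -2.11 ± 0.44 (SE, edgeR adjusted p = 0.00877), and the fall was larger in S135 (-3.56) than in S151 (-1.41), a difference that was not tested. It did not pass within S151 alone (edgeR adjusted p = 0.0919) or with no batch term (edgeR adjusted p = 0.286).

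ENSMUSG00000024653 carried nearly all of the change in the share of all counts that the most abundant genes held. The 10 most abundant genes of each library held 47.1% ± 4.36 of counts with saline and 34.5% ± 6.27 with bleomycin (SD, n = 6 each), a mean difference within batches of -10.9 percentage points. ENSMUSG00000024653 alone differed by -10.6 points, and the rest of the 10 by -0.353 points. The rest held on average 31.5% with saline and 33.4% with bleomycin in S135, and 22.2% and 19.5% in S151, and the groups overlapped in both batches. As the total includes ENSMUSG00000024653, a fall in its share raises the shares of all other genes. With it taken out of the total, an alternative added after seeing the data, the 10 most abundant other genes differed by -4.38 points. Their means were 38.1% with saline and 36.7% with bleomycin in S135, and 30.2% and 22.8% in S151, again with overlap in both batches. In a fixed list of the 10 genes with the highest mean over all 12 libraries, 3 were called lower in edgeR (2.48% of all genes were) and 8 had a negative log2 fold change. Among the top 50 genes, 5 were called higher and 8 lower, and 29 were negative, with a median log2 fold change of -0.14.

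Whole lung libraries of the same mice gave a scale for the compartment. Epithelium-enriched genes were defined in the saline mice of 1 batch as those whose epithelial level was at least 2-fold that in whole lung (edgeR adjusted p under 0.05), and their share was then read in the mice of the other batch. Read in S151, the 1601 genes enriched in S135 held 57.3% to 66.6% of epithelial counts with saline and 48.3% to 55.2% after bleomycin. Read in S135, the 2071 genes enriched in S151 held 40.5% to 42.5% with saline and 32.7% to 35.0% after bleomycin. The groups did not overlap in either batch (mean difference within batches -9.37 percentage points, two-sided exact permutation p = 0.00286, adjusted p = 0.0157). Exposures were exchanged within batches, 0.00286 is the smallest p the 350 arrangements allow, and adjustment was over the 11 library measures tested. ENSMUSG00000024653 belongs to this class in both definitions, and its own difference of -10.6 points exceeds that of the class. With that gene taken out of the class and of the total, an alternative added after seeing the data, the share was 48.6% to 53.1% with saline and 42.6% to 48.5% with bleomycin in S151, and 29.6% to 30.7% and 28.4% to 28.5% in S135, a mean difference of -3.75 points. In whole lung the full class also had a lower mean share after bleomycin, a difference that did not pass after adjustment (-4.10 percentage points, two-sided exact permutation p = 0.0314, adjusted p = 0.0576). Whole lung libraries of S135 held between 16.6% and 17.2% with saline and between 15.1% and 15.7% with bleomycin, and those of S151 between 21.0% and 36.5% and between 19.7% and 23.8%.

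Epithelium-depleted genes, defined likewise by a level at least 2-fold below whole lung, were read in the same way. Read in S151, they held 2.31% to 3.03% of epithelial counts with saline and 3.32% to 4.03% after bleomycin. Read in S135, they held 3.95% to 4.81% with saline and 5.11% to 5.24% after bleomycin. The mean difference within batches was 0.985 percentage points (two-sided exact permutation p = 0.00571, adjusted p = 0.021). In whole lung libraries they held 16.9% to 32.0% over both groups, and the difference was 0.573 percentage points (two-sided exact permutation p = 0.6, adjusted p = 0.717). On library totals the median log2 fold change of all genes tested was itself 0.34. Without ENSMUSG00000024653 in the total, the groups overlapped in both batches: 4.67% to 5.77% with saline and 5.43% to 5.77% with bleomycin in S135, and 3.25% to 3.72% and 3.67% to 4.78% in S151. Genes depleted at least 8-fold held 0.292% to 0.424% with saline and 0.377% to 0.792% with bleomycin in S151, which overlap. In S135 they held 0.488% to 0.694% with saline and 0.779% to 0.953% with bleomycin, which do not overlap. The difference over both batches did not pass (two-sided exact permutation p = 0.02, adjusted p = 0.055). Which cells this RNA came from was not tested.

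**Figure D3:**
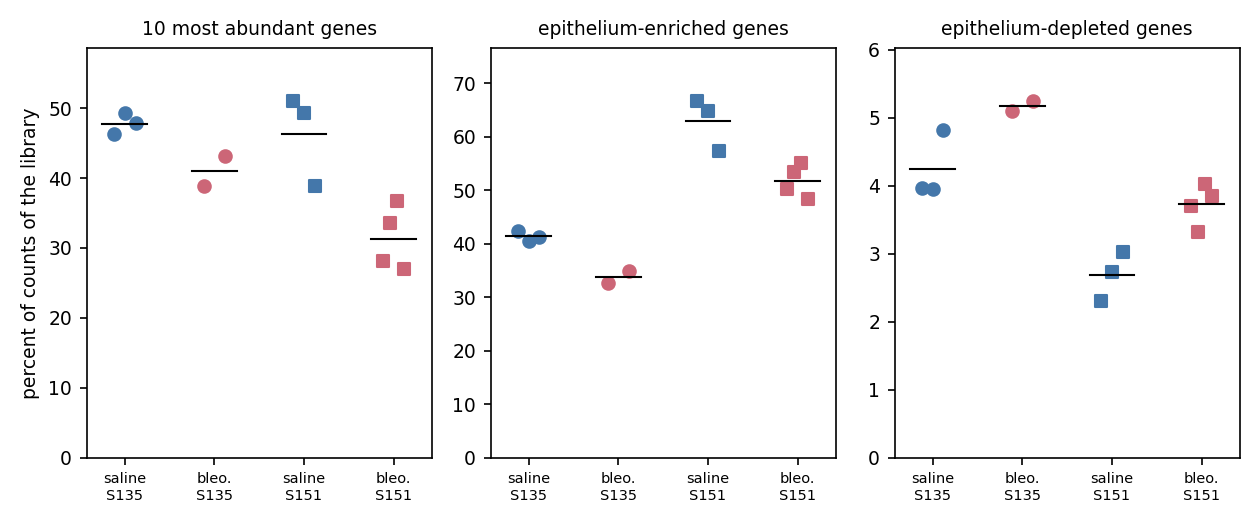
Percent of all counts of an epithelial library (y axes from 0) in its 10 most abundant genes, in epithelium-enriched genes and in epithelium-depleted genes, by batch and exposure. Points are mice (circles S135, squares S151) and lines are group means. Within each batch the bleomycin mice lie below the saline mice in the first 2 panels and above them in the third. The most abundant gene is included in the first 2 panels.

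Single genes of these classes were called at rates that can be read against all genes of the same fit. Within S151, where 1.74% of tested genes were called higher and 0.393% lower, the 1575 enriched genes included 12 higher and 21 lower (0.762% and 1.33%). Their median log2 fold change was -0.11, against 0.01 over all genes. The 2337 depleted genes included 51 higher and 2 lower (2.18% and 0.0856%; median 0.15). Within S135, where 1.01% were called higher and 0.494% lower, the 2029 enriched genes included 27 higher and 24 lower (1.33% and 1.18%; median 0.05). The 2693 depleted genes included 31 higher and 4 lower (median 0.10), against 0.01 over all genes.

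Both batches could be set against each other because they share no mouse. Genes called in 1 batch were read in the mice of the other. Of 143 genes called higher in S135, 141 were tested in S151. There 136 had a positive log2 fold change (96.5%, against 50.8% of all genes) and 60 were called higher (1.74% of all genes were). The median log2 fold change of this set was 1.24 in S151, after 1.44 in S135. Of 70 genes called lower in S135, 68 were negative in S151, against 49.2% of all genes. In S151, 7 of the 70 were called lower (0.393% of all genes were), and the median of the 70 was -0.78.

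The reverse reading gave a like picture. Of 262 genes called higher in S151, 236 were tested in S135. There 226 were positive (95.8%, against 50.7% of all genes) and 60 were called higher (1.01% of all genes were). The median of the 236 was 1.75. Of 59 genes called lower in S151, 58 were negative in S135, against 49.3% of all genes. In S135, 7 of the 59 were called lower (0.494% of all genes were), and the median of the 59 was -0.69. No gene was called in opposite directions in either reading.

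These lists give a measure of the response in each mouse. In S151 the mean log2 CPM of the genes raised in S135, set to 0 at the mean of saline mice, was 1.37, 1.43, 1.54 and 1.59 in bleomycin mice 204, 206, 225 and 208R. Saline mice lay between -0.10 and 0.09. In S135 the mean of the genes raised in S151 was 2.50 in bleomycin mouse 148 and 1.70 in mouse 149, with saline mice between -0.31 and 0.17. For genes lowered in S151 the values of these mice were -1.21 and -0.48, with saline mice between -0.04 and 0.05. Mouse 148 thus had the larger value in both directions.

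**Figure D4:**
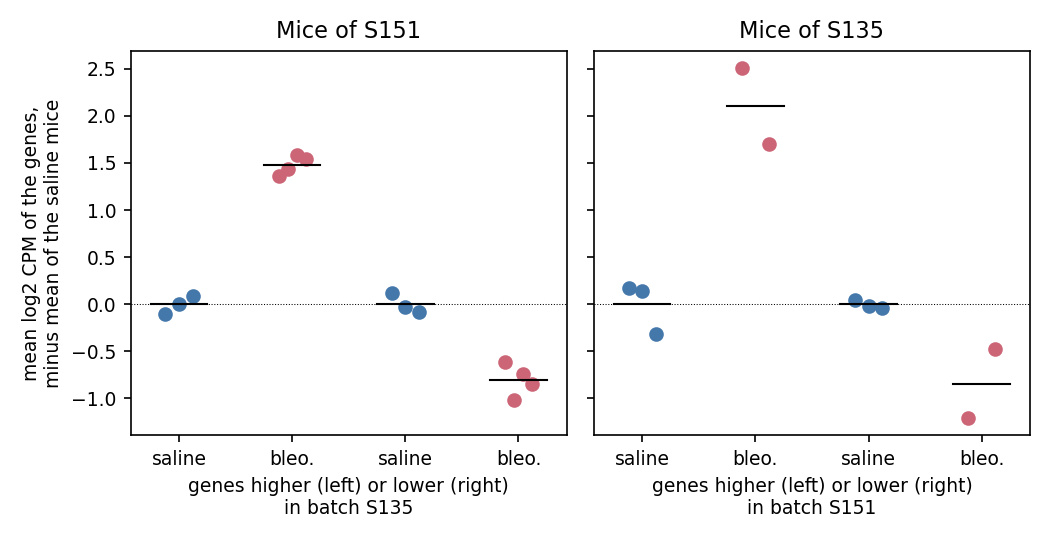
Mean log2 CPM of genes called in the other batch, minus the mean of the saline mice (y axis), for the mice of S151 (left) and S135 (right). Points are mice, blue saline and red bleomycin control, and lines are group means. Bleomycin mice lie at 1.37 or higher for raised genes and at -0.48 or lower for lowered genes.

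Cell-cycle genes could be followed by ID. The marker pairs that the scran package ships for mouse cells give genes by phase, and genes that lead in a phase and trail in another were kept: 81 for G1, 136 for S and 89 for G2/M. G1 cells grow before copying their DNA, S-phase cells copy it, and G2/M cells have copied it and divide. The lists share 38 genes between S and G2/M, 19 between G1 and S and 9 between G1 and G2/M. They were brought in after the files were opened, in place of lists by symbol.

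Of 83 G2/M genes tested, 22 were called higher after bleomycin in edgeR (26.5%, against 3.10% of all genes). The median log2 fold change of the 83 was 0.38, against -0.01 over all genes, and 62 of 83 were positive. The 131 S genes included 21 higher and 1 lower (16.0% higher; median 0.17). The 77 G1 genes included 11 higher and 3 lower (14.3% higher; median 0.03). The 38 tested genes listed for G2/M alone held the largest share, with 16 higher (42.1%) and a median of 0.57. Of genes listed for S alone 14 of 77 were higher (18.2%), and of those for G1 alone 8 of 50 (16.0%). Of 36 genes listed for both S and G2/M, 5 were higher (13.9%).

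The G2/M genes that rose were mostly low in saline mice. The 22 called genes had a median of 2.57 CPM in saline and 17.7 CPM in bleomycin libraries, with log2 fold changes from 0.43 to 4.43, and in 16 of the 22 every bleomycin library lay above every saline library, as in 175 of the 439 genes called higher and 1.47% of all genes. The 61 genes not called had a median of 11.8 CPM with saline and a median log2 fold change of 0.14. The list also holds genes that resting cells use, and its summed level rose little: 1968 to 2358 CPM with saline and 2431 to 2566 CPM with bleomycin on the TMM scale, with no overlap between groups. Summed levels of S genes were 4801 to 6657 CPM with saline and 4883 to 6489 CPM with bleomycin.

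G2/M genes were then read in each batch and with each mouse left out. Within S135, 9 of 81 G2/M genes were higher and 1 lower (11.1% against 1.01% of all genes called higher), with a median log2 fold change of 0.32. Within S151, 18 of 88 were called higher in edgeR (20.5% against 1.74%), with a median of 0.48. With a mouse left out, between 17 and 24 were called higher, while 246 to 565 of all genes were. On library totals alone 37 were called higher, where the median over all genes stood at 0.34. Calls over all genes also rose there, from 439 to 1753 higher, so the 37 are no stronger result for G2/M genes.

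**Figure D5:**
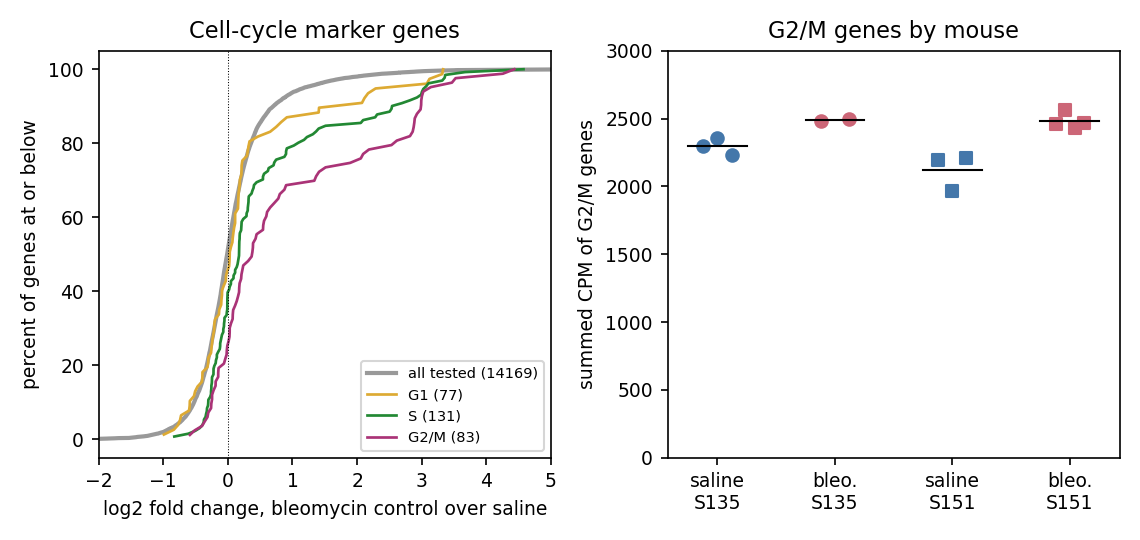
Left, cumulative percent of genes (y axis) at or below each log2 fold change of bleomycin control over saline (x axis, cropped to -2 to 5) for all 14169 genes tested and for the 77 G1, 131 S and 83 G2/M genes. Right, summed CPM of the G2/M genes by mouse (y axis from 0; circles S135, squares S151; lines are means), where bleomycin mice lie at 2431 or higher and saline mice at 2358 or lower.

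In whole lung 27 of 88 G2/M genes were higher and 3 lower (30.7%, against 6.37% of all 16398 genes called higher), with a median log2 fold change of 0.19. Of the 22 G2/M genes called higher in epithelium, 20 were also called higher in whole lung of the same mice (90.9% of the epithelial and 74.1% of the whole lung calls). The median difference between compartments was 0.27 on the log2 scale over the 88 genes, against 0.01 over all genes tested. Tested one by one, 1 of them had a response that was larger in epithelium than in whole lung. For the other 87 the response was not shown to differ between epithelium and whole lung.

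An interaction term, fitted with each mouse as a block, asked where the epithelial response departed from whole lung. It called 16 of 17212 genes: 10 responded more positively in epithelium (0.0581%) and 6 more negatively (0.0349%). Of the 10, 9 were called higher in epithelium, and 5 were called higher and 1 lower in whole lung. Their interaction terms ran from 1.06 to 6.46 on the log2 scale, and the highest adjusted p was 0.0487. In epithelium the gene at 6.46 stood at 0 in every saline library and at 1.42 ± 0.878 CPM with bleomycin (SD, n = 6). A fold from 0 has no firm size, and the next largest term was 2.16. Of the 6, 2 were called lower in epithelium, and 4 were called higher in whole lung, with terms from -2.49 to -0.88. In whole lung the gene at -2.49 stood at 29.0 ± 41.6 CPM with bleomycin (SD, n = 6), an SD above its mean. Without the mouse block no gene was called in edgeR, with a lowest adjusted p of 0.062 and 1177 genes at an unadjusted p under 0.05. The count was 5 without bleomycin mouse 148, 6 without saline mice 146 or 207 or bleomycin mice 204 or 208R, 8 without saline mice 152 or 221, 9 without bleomycin mouse 149 and 38 without bleomycin mouse 206.

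Genes called higher in epithelium had a median log2 fold change of 1.01 in whole lung of the same mice, and genes called lower had a median of -0.49. Since these genes were picked on their epithelial values, which also enter the difference, their larger epithelial medians of 1.56 and -0.78 are given as a description only.

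A batch-limited set of 146 genes, each with at least 50 CPM in all libraries of S061 and a median under 0.5 CPM elsewhere, marked RNA that is nearly absent from these mice. It held 0.000690% to 0.00717% of epithelial counts with saline and 0.00136% to 0.0529% with bleomycin, the highest in mouse 149. Of the 10 members tested, 2 were called higher (3.10% of all genes were), and 1 of them was among the 12 genes with the largest rise. That gene stood at 86.1 CPM in mouse 149 and at 0.158 to 2.47 CPM in the other 5 bleomycin mice. Without mouse 149 the main comparison called 440 genes higher and 330 lower.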

How the data were processed

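The authors deposited raw read counts, whole numbers per Ensembl gene and library (42548 genes; 10826 were at 0 throughout the 48 libraries). STAR 2.5.2b and GRCm38 were used per the submitters' processing notes; no source used here names the counting program. Columns were matched to samples by mouse number and compartment letter, with I read as whole lung, and 0 columns were left unused.

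Counts were analysed in R 4.3.3 with edgeR 4.0.16 (TMM, filterByExpr, robust quasi-likelihood test, Benjamini-Hochberg adjustment over all genes tested) with terms for batch and exposure. SE is the fold change over the root of F. CPM values are TMM-scaled; group means of log2 CPM used a prior count of 2. The interaction fit held 24 libraries with the mouse as a block: the libraries of a mouse deviated together from their group means (r from 0.095 to 0.474, median 0.182), and the mouse numbers of the labels give the pairing. Exact permutations exchanged exposures within batches. The tests were run on simulated data: of 50 genes each, 27 raised and 26 lowered 2-fold, and 37 and 41 changed 4-fold, were recovered among 14169 in the main comparison, and 12, 14, 33 and 26 among 17212 in the interaction.

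Single genes follow the rule of 12 per direction; because IDs could not be named, 2 IDs per direction are printed, the first by the rule and the most abundant called. The 38 symbol lists planned could not be applied. The comparison, lists and alternatives were chosen with earlier results of these data known. Mice are the replicates. Alternatives were DESeq2 1.42.0, limma 3.58.1 voom, other scaling and filters, other terms, all 24 epithelial libraries and each mouse left out. Cell-cycle pairs came from scran 1.30.0. Nothing was recomputed from reads.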

Additional observations from a re-analysis of the deposited data

Results flagged for a closer look

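ENSMUSG00000061100 stood at 4330 CPM in saline mouse 146 of S135, far above the other 5 saline mice, which lay between 178 and 884 CPM, and above the lowest bleomycin library of the same batch (3633 CPM, mouse 149). Without mouse 146 its log2 fold change was 4.20 in place of 3.26.

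The batch-limited genes held 0.0529% of the epithelial counts of bleomycin mouse 149, against 0.00563% or less in the other 5 bleomycin mice. In its whole lung library they held 0.846%. Of 26 groups of values looked at for a sample far from the rest, these 2 stood out, and chance alone flags about 1 in 20.

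The bleomycin effect on 16 genes differed between epithelium and whole lung in the test of the interaction, with the limits given beside that count.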

How the results depend on the processing

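The counts of higher and lower genes were 707 and 566 in DESeq2, 864 and 885 in limma voom with sample quality weights, 787 and 721 with all 24 epithelial libraries, 143 and 70 within S135, 262 and 59 within S151, and 101 and 7 with no batch term. With library totals alone, an alternative added after seeing the data, they were 1753 and 75, so the split moved from 55.6% to 95.9% of calls higher. It was also 81.6% higher within S151, 67.1% within S135 and 93.5% with no batch term. Size factors of DESeq2, no filter on low counts and sex as a term kept both counts within 1.5 times. No gene changed direction between calls under any of these settings. Leaving out 1 mouse gave 246 to 565 higher and 130 to 538 lower genes. The interaction count, 16 with the pairing by mouse, was 0 with no replicate block and 5 to 38 with a mouse left out. The shares of abundant genes rest on raw counts, and those of compartment classes on genes picked by an edgeR fit. Both kinds of share were recomputed only without the most abundant gene, an alternative added after seeing the data. The causes were not tested. At these library sizes and numbers, 26 of 50 simulated 2-fold falls were recovered.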
